A study of Mus musculus with 52 samples.

Results

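Brain libraries labelled A2aR knockdown with KA were compared with brain libraries given KA alone, over autosomal genes. The comparison took every library that the labels put in either group, which made 7 of the 52 libraries of the series, 3 labelled knockdown (numbered 4 to 6) and 4 with KA alone (numbered 1 to 4). Of 32814 autosomal genes in the count table, 22496 had enough counts to be tested. The series holds brain and cultured astrocyte RNA from C57BL/6 mice and sets epileptic against control samples. All 7 libraries came from flash-frozen brain of C57BL/6 mice in the KA-induced TLE model, in which KA (kainic acid) is given to produce seizures like those of temporal lobe epilepsy. The 3 libraries of the other group are labelled as carrying a knockdown of A2aR in addition to KA. The table also holds 3 untreated libraries and 3 with an Apoe knockout given KA, which entered the fit and are used here as reference levels. The brain region, the KA dose, the time of sampling, the age of the animals, the agent and cell type of the knockdown and any control vector are not stated in the labels. The labels do not tie the libraries to separate animals. A p-value here therefore stands against the scatter of these libraries, and that scatter may be technical.

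The A2a adenosine receptor, encoded by Adora2a, is coupled to the stimulatory G protein. When adenosine binds it, adenylyl cyclase makes cAMP, protein kinase A is activated, and the transcription factor CREB can be phosphorylated. The receptor is densest on striatal neurons that project to the pallidum and is present at lower levels on glutamatergic terminals of the hippocampus and cortex, on astrocytes and on microglia. Seizures release adenosine, which restrains neurons through the A1 receptor and can excite them through A2a.

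Adora2a itself was not lower in the libraries labelled knockdown. It lies in mm10 on chromosome 10, from 75316877 to 75334784 on the plus strand. Its level was 1.75, 2.15 and 1.89 TPM (length-scaled transcript abundance) in knockdown libraries 4, 5 and 6, and 1.95, 2.90, 1.32 and 2.26 TPM in KA libraries 1 to 4. The groups overlapped, and every knockdown value lay inside the range of the KA libraries. The mean was 1.93 ± 0.203 TPM (SD, n = 3) against 2.11 ± 0.656 TPM (SD, n = 4). The counts behind these levels were 162, 181 and 171 reads against 173, 237, 114 and 117. On the counts the log2 fold change was 0.13 ± 0.39 (SE, edgeR adjusted p = 0.963), with a 95% interval from -0.72 to 0.98. Untreated libraries were at 1.07, 2.35 and 0.958 TPM, and Apoe knockout libraries with KA at 3.53, 1.76 and 1.25 TPM. The knockdown could not be seen at the RNA level at this depth, so every difference given here is between libraries by their label. Within 3 Mb of Adora2a, 71 other genes were tested and edgeR called 0 and DESeq2 1, with 7 at an unadjusted p under 0.05 and a median log2 fold change of 0.03.

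The 7 libraries held 68760648 to 76643829 counts each. Mitochondrial genes took 7.44% to 8.95% of the counts in the libraries labelled knockdown and 6.90% to 7.44% in the KA libraries, the highest being knockdown library 6. The female-specific transcript Xist was at 0.00652 to 0.0640 TPM in the knockdown and at 0.0255 to 0.272 TPM in the KA libraries, against 122 to 145 TPM in the untreated ones. The male-specific transcript Ddx3y was at 20.3 to 33.9 TPM in the knockdown and at 25.9 to 30.4 TPM in the KA libraries. It was at 29.3 to 34.2 TPM in the Apoe knockout libraries, against 0.128 to 0.404 TPM in the untreated ones. The untreated libraries therefore differed from the other groups in sex-specific transcripts as well as in treatment, and these cannot be told apart. Library pairs within a group differed by 61.2 to 100.6 times the sampling noise of their counts (chi-square per degree of freedom), so none was counted as a repeat deposit.

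Few autosomal genes passed the test between the libraries labelled knockdown and the KA libraries. At an edgeR adjusted p under 0.05, 4 genes were higher (0.0178% of those tested) and 5 were lower (0.0222%). The higher ones were Wfs1, Gng4, Hba-a1 and Magi2, and the lower ones Ice2, Gpc2, Jchain, Ighg1 and Ighg2b. At an unadjusted p under 0.05, 4.05% of genes were higher and 5.17% lower. The DESeq2 Wald test called 76 of the same genes higher (0.338%) and 166 lower (0.738%), and all 9 edgeR calls were among them. The median log2 fold change over all autosomal genes tested was -0.01. Without knockdown library 5, edgeR called 0 genes (2194 at an unadjusted p under 0.05), with adjusted p = 0.055 for Jchain, Magi2 and Ighg1. Fitting only the 7 libraries left 1 call, the protocadherin gene Pcdhb19, which is none of these 9.

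**Figure D1:**
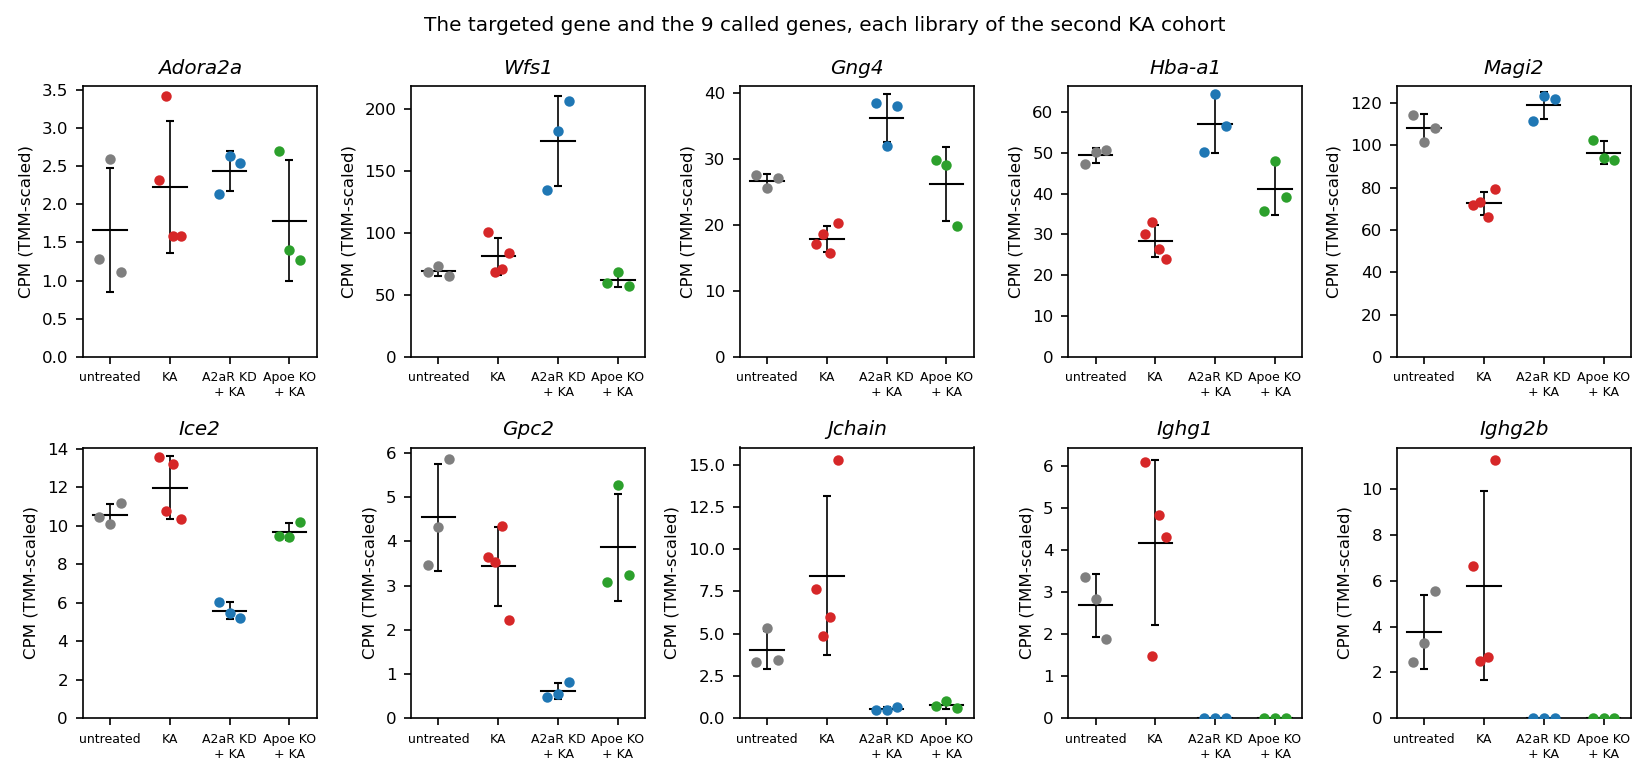
TMM-scaled CPM of Adora2a and of the 9 called genes in each library, with the group mean (line) and SD (bar). Adora2a of the libraries labelled A2aR knockdown (blue) lies within the KA range (red), Wfs1, Gng4, Hba-a1 and Magi2 lie above it, and the other 5 lie below it.

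Wfs1 encodes wolframin, a membrane protein of the endoplasmic reticulum that is dense in pyramidal neurons of hippocampal field CA1. It was at 75.4, 102 and 105 TPM in knockdown libraries 4, 5 and 6 and at 58.5, 39.9, 40.7 and 48.3 TPM in KA libraries 1 to 4, with no overlap. The mean rose to 94.3 ± 16.5 TPM (SD, n = 3) from 46.8 ± 8.63 TPM (SD, n = 4), a log2 fold change of 1.10 ± 0.15 (SE, edgeR adjusted p = 0.0185). Wfs1 was as high as this in no other library of the table. It was at 38.6 to 43.1 TPM in untreated and 32.7 to 38.6 TPM in Apoe knockout libraries. Against untreated brain the log2 fold change was 1.34 (edgeR adjusted p = 0.00553), and against Apoe knockout with KA it was 1.49 (edgeR adjusted p = 0.00245). These comparisons called 10 genes (0.0445%) and 14 genes (0.0622%) in all. The Wfs1 call held in 2 of the 7 fits that left out a library, with adjusted p up to 0.0921.

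Gng4 encodes a gamma subunit of heterotrimeric G proteins, which couple receptors to their effectors. Its level was 25.8, 22.5 and 23.6 TPM in the libraries labelled knockdown and 11.8, 13.5, 11.6 and 16.6 TPM in the KA libraries, again without overlap. The log2 fold change was 1.01 ± 0.14 (SE, edgeR adjusted p = 0.022). Untreated libraries, at 17.9 to 19.4 TPM, and Apoe knockout libraries, at 14.8 to 20.9 TPM, lay mostly between these groups. The call held in 1 of 7 fits that left out a library.

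Hba-a1, an alpha-globin gene of red blood cells, was at 152, 196 and 157 TPM in the libraries labelled knockdown and at 95.1, 104, 82.3 and 75.2 TPM in the KA libraries. The log2 fold change was 1.00 ± 0.13 (SE, edgeR adjusted p = 0.0181), and the call held in 3 of the 7 fits that left out a library, with adjusted p up to 0.0782. Its neighbour Hba-a2 is a near-identical copy, so reads could be split between them. Hba-a2 stood at 166, 201 and 124 against 100.4, 105, 78.3 and 77.8 TPM (log2 fold change 0.93, edgeR adjusted p = 0.328). All 4 autosomal erythrocyte genes tested had positive fold changes, with a median of 0.82 and 4 at an unadjusted p under 0.05. Over all genes, 4.05% were higher at that p. The summed level of the 5 erythrocyte markers was 478 to 732 TPM in the knockdown, 338 to 432 in the KA, 465 to 682 in the untreated and 493 to 604 in the Apoe knockout libraries. The KA libraries were thus the lowest group for red cell transcripts.

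Magi2, which was singled out after its values were seen, encodes a scaffold of synapses and cell junctions. In CPM (counts scaled by TMM library size), it was at 112, 123 and 122 in the libraries labelled knockdown and at 71.9, 73.4, 66.1 and 79.4 in the KA libraries. The log2 fold change of its counts was 0.71 ± 0.08 (SE, edgeR adjusted p = 0.00781). In TPM, which scales by transcript length, the groups overlapped, at 44.3, 52.2 and 46.0 against 42.9, 32.1, 34.9 and 45.5 TPM, and the log2 ratio of the means was 0.29. Untreated libraries were at 102 to 115 CPM, and the KA minus untreated log2 fold change was -0.57 (edgeR adjusted p = 0.0144). That contrast shares the KA libraries with this one. Reads of 4 genes on the other strand within the span of Magi2 could enter its counts if strand was not used.

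Ice2 encodes a subunit of the little elongation complex, which serves transcription of small nuclear RNA genes. It was at 4.16, 4.03 and 3.86 TPM in the libraries labelled knockdown and at 9.25, 6.94, 7.33 and 7.29 TPM in the KA libraries. The mean fell to 4.02 ± 0.148 TPM (SD, n = 3) from 7.70 ± 1.05 TPM (SD, n = 4), and the log2 fold change was -1.10 ± 0.14 (SE, edgeR adjusted p = 0.0127). Ice2 was also lower than in untreated libraries (log2 fold change -0.92, edgeR adjusted p = 0.0303), which were at 6.41 to 8.21 TPM. Against the Apoe knockout libraries, at 4.74 to 6.96 TPM, it did not pass (log2 fold change -0.79, edgeR adjusted p = 0.0954). Its call held in 5 of the 7 fits that left out a library.

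Gpc2, singled out after its values were seen, encodes glypican 2, a heparan sulfate proteoglycan of developing neurons. Its level was low throughout, at 0.346, 0.567 and 0.959 TPM in the libraries labelled knockdown and 2.64, 2.29, 2.92 and 1.53 TPM in the KA libraries. The counts were 36, 38 and 55 against 272, 244, 312 and 163. The log2 fold change was -2.48 ± 0.34 (SE, edgeR adjusted p = 0.0185). It was also lower than in untreated brain (-2.88, edgeR adjusted p = 0.00553) and than in Apoe knockout brain with KA (-2.65, edgeR adjusted p = 0.0135). Gpc2 and Wfs1 were thus called in the same direction against all 3 other groups, in contrasts that share the libraries labelled knockdown. The call of Gpc2 against the KA libraries held in 2 of the 7 fits that left out a library.

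Immunoglobulin transcripts made up the other lower calls, and they too were singled out after their values were seen. Jchain, which joins the units of secreted IgA and IgM, was at 0.453, 0.447 and 0.546 TPM in the libraries labelled knockdown and at 11.7, 7.40, 8.66 and 23.8 TPM in the KA libraries. The log2 fold change of Jchain was -3.92 ± 0.43 (SE, edgeR adjusted p = 0.00781). Ighg1 and Ighg2b, constant regions of IgG heavy chains, had 0 counts in every knockdown library. The KA libraries held 456, 102, 347 and 318 counts of Ighg1 and 496, 173, 193 and 828 of Ighg2b. With a floor of 3 counts over the group, Ighg1 was at least 308-fold lower (edgeR adjusted p = 0.0106) and Ighg2b at least 426-fold lower (edgeR adjusted p = 0.0185). Igkc, the kappa light chain, was at 1.00, 2.09 and 8.61 against 178, 43.4, 118 and 499 TPM, and Igha, the IgA heavy chain, at 0, 1.36 and 1.39 against 77.1, 25.9, 52.3 and 275 TPM. Neither passed the test (edgeR adjusted p = 0.09998 and 0.0924). Their groups did not overlap, which was a condition for naming them. Reads can be shared within these gene families, so the split between members is uncertain.

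The Apoe knockout libraries were low in these transcripts too. The summed level of 13 immunoglobulin and plasma cell genes was 4.72 to 16.8 TPM in the libraries labelled knockdown, 95.9 to 941 in the KA, 82.1 to 153 in the untreated and 3.75 to 6.44 in the Apoe knockout libraries. Of the 12 tested, edgeR called 3 lower and 0 higher, DESeq2 called 7 lower, and 8 were lower at an unadjusted p under 0.05, against 5.17% of all genes. The list was made after the values were seen and holds the called genes, so these counts describe it and test nothing. Ighg1 had 0 counts in all 3 Apoe knockout libraries, and the Apoe knockout minus KA contrast, which shares the KA libraries, also called it (edgeR adjusted p = 0.00372). For the plasma cell markers Mzb1, Sdc1, Prdm1 and Tnfrsf17 the groups overlapped. Mzb1 was at 0.231, 0 and 0.148 against 1.51, 0.818, 0 and 3.17 TPM (log2 fold change -3.32, edgeR adjusted p = 0.671). The log2 fold changes of Sdc1, Prdm1 and Tnfrsf17 were 0.26, 0.05 and 0.10, and none of these 4 passed. In whole tissue, fewer cells of a type and less RNA per cell cannot be told apart. Hepatocyte transcripts, listed after the values were seen, moved with the libraries in another way. Their 12 genes summed to 137 TPM in KA library 1 and to 120.4 to 123 TPM in the untreated libraries, but to 0.0715 to 2.32 TPM in KA libraries 2 to 4 and 0.805 to 1.71 TPM in the libraries labelled knockdown. Albumin (Alb) was at 63.2 TPM in KA library 1 and at 0.159 TPM or less in the other 3 KA libraries. Jchain and Ighg1 kept their calls without KA library 1, while Ighg2b did not (edgeR adjusted p = 0.0589). Without KA library 1, 8 of the 12 immunoglobulin and plasma cell genes were lower at an unadjusted p under 0.05.

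Next, 8 genes with higher and 8 with lower fold changes that did not pass the test were taken in order of p. They were drawn only from genes without overlap between the groups in TPM, with a level above the median and no predicted-gene symbol. Of the higher ones, 3 are given in full. Bhlhe40, a repressor that neuronal activity and the circadian clock can induce, was at 131, 108 and 118 against 87.9, 65.8, 78.7 and 75.5 TPM (log2 fold change 0.72 ± 0.12 SE, edgeR adjusted p = 0.0567). Bcl6, a transcriptional repressor, was at 43.5, 49.8 and 41.9 against 32.3, 28.4, 33.8 and 31.8 TPM (log2 fold change 0.60 ± 0.09 SE, edgeR adjusted p = 0.0556). Spry4, a feedback inhibitor of receptor tyrosine kinase signalling, was at 8.05, 7.12 and 7.97 against 4.46, 4.19, 4.89 and 5.53 TPM (log2 fold change 0.78, edgeR adjusted p = 0.131). The others were Strip2, a member of a phosphatase complex (0.72), Arhgef3, a guanine nucleotide exchange factor (0.46), P4ha1, which hydroxylates collagen (0.47), Mn1, a transcriptional regulator (0.78), and the kinase gene Sbk1 (0.65). Their edgeR adjusted p ran from 0.0567 for Strip2 to 0.12 for Sbk1. DESeq2 called all 8, with adjusted p up to 0.000482, against 0.338% of all genes called higher. The 8 were picked by small p and no overlap in these same counts, so these calls are not separate support.

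Igkc and Igha were among the lower 8. Pds5a, a regulator of cohesin, was at 19.6, 19.0 and 28.9 against 44.4, 42.8, 42.8 and 39.0 TPM (log2 fold change -0.91 ± 0.15 SE, edgeR adjusted p = 0.083). Trank1 was at 84.5, 124 and 92.0 against 234, 189, 261 and 146 TPM (log2 fold change -0.98, edgeR adjusted p = 0.0556). Med12l, a paralogue of a Mediator subunit, had a log2 fold change of -0.96, Cpeb1, which binds mRNA and controls its polyadenylation, -0.33, and Ppl, the cytolinker periplakin, -1.65. Their edgeR adjusted p was 0.135, 0.135 and 0.145. Med12l spans 7 genes on the other strand, the microglial receptor gene P2ry12 among them, and the labels do not say whether counting used strand. Genes on the other strand also overlap Bcl6, Bhlhe40, Arhgef3, Spry4, Pds5a, Cpeb1 and Gfap.

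Col6a1, a chain of collagen VI, lies on chromosome 10 within 3 Mb of Adora2a and was low in the libraries labelled knockdown. It was at 13.6, 10.7 and 17.9 TPM there and at 61.5, 93.6, 52.8 and 51.9 TPM in the KA libraries (log2 fold change -2.11 ± 0.41 SE, edgeR adjusted p = 0.17). DESeq2 called it (adjusted p = 0.000828), and so did edgeR in the fit without the untreated group. The Apoe knockout libraries were low too, at 9.75 to 12.6 TPM, and the untreated libraries were split, at 49.3, 12.2 and 46.3 TPM. Of 26 collagen and basement membrane genes, 18 had negative fold changes, with a median of -0.10, 5 at an unadjusted p under 0.05 in that direction and 0 called by edgeR. DESeq2 called 3 of them lower. Over all genes, 5.17% were lower at that unadjusted p. Col6a3 was at 0.802, 0.488 and 0.715 against 2.32, 1.72, 1.08 and 1.44 TPM and Col4a2, of vascular basement membrane, at 27.8, 26.6 and 24.3 against 33.9, 34.9, 31.1 and 36.0 TPM (edgeR adjusted p = 0.286 for each).

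**Figure D2:**
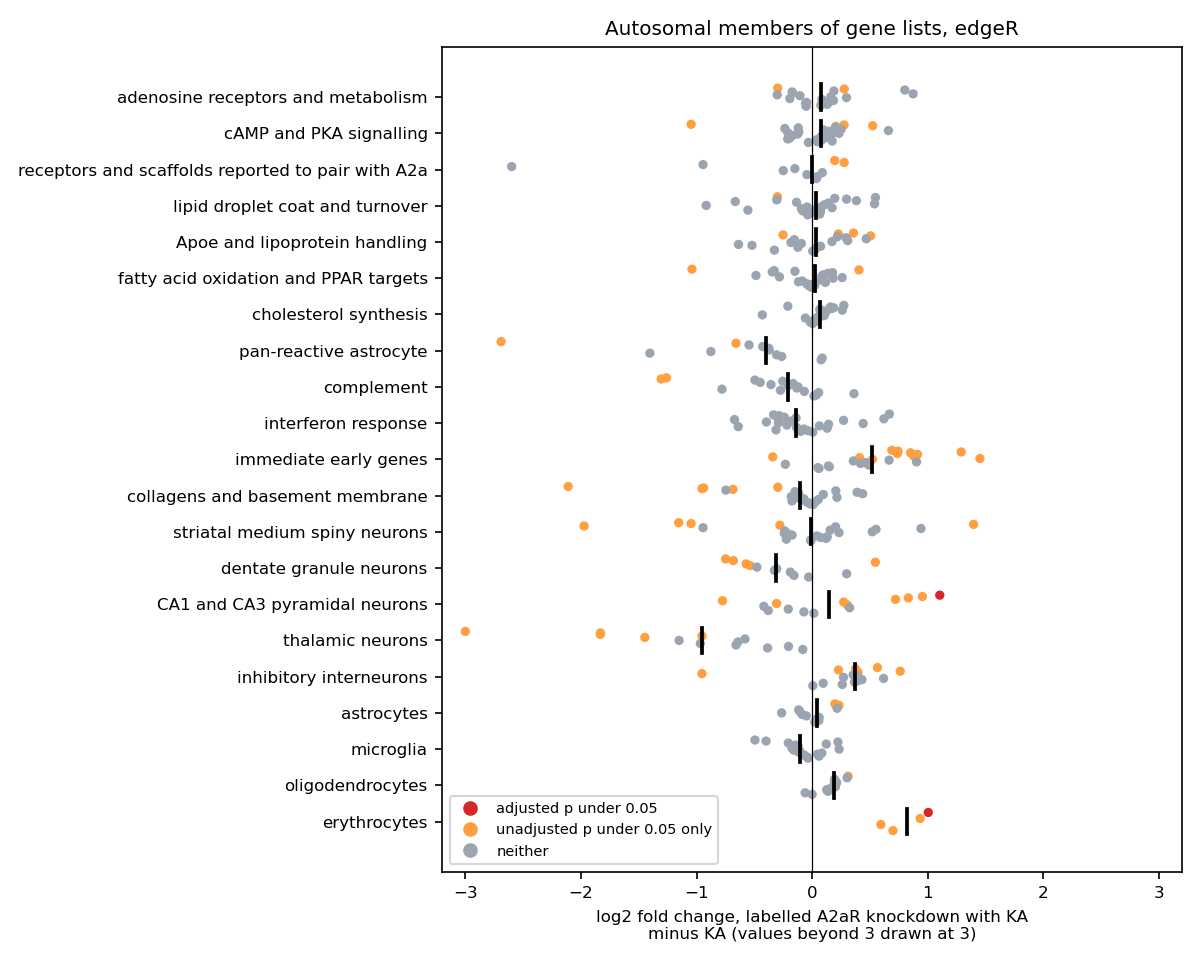
Log2 fold changes (edgeR) of the autosomal members tested in each gene list, with the list median as a black bar, for the libraries labelled A2aR knockdown minus KA. Wfs1 and Hba-a1 are the only called members drawn (red), thalamic neuron markers lie to the left with a median of -0.95, and immediate early genes lie to the right with a median of 0.52.

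Genes of adenosine signalling lay near the median of all genes. Of 20 genes of adenosine receptors and metabolism, 0 were called by edgeR or DESeq2, 1 was higher and 1 lower at an unadjusted p under 0.05, and the median log2 fold change was 0.08. Adora1, the inhibitory A1 receptor, was at 108, 69.4 and 108 against 69.2, 77.2, 89.9 and 73.7 TPM (log2 fold change 0.28, edgeR adjusted p = 0.533). Slc29a1, the nucleoside transporter ENT1 that takes up adenosine, was at 27.1, 25.6 and 19.7 against 38.0, 39.5, 34.3 and 27.3 TPM (log2 fold change -0.30, edgeR adjusted p = 0.506). Adora3 was at 0.976, 2.31 and 1.46 against 0.867, 0.537, 1.24 and 1.06 TPM, and Adora2b at 5.10, 4.24 and 2.83 against 4.39, 2.15, 4.58 and 5.11 TPM. The groups overlapped for each receptor gene. Adk, the kinase that clears adenosine, was at 62.2, 61.0 and 50.2 against 59.4, 60.2, 64.7 and 63.3 TPM.

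Downstream of the receptor, 0 of 27 genes of cAMP and protein kinase A signalling were called by edgeR or DESeq2, with 3 higher and 1 lower at an unadjusted p under 0.05 and a median of 0.08. The lower one was Pde10a, a striatal phosphodiesterase that breaks down cAMP, at 15.9, 11.4 and 8.29 against 16.3, 29.1, 19.9 and 13.8 TPM (log2 fold change -1.05, edgeR adjusted p = 0.492). Among 10 genes for receptors and scaffolds reported to pair with A2a, 0 were called and the median was -0.0048. Drd2, the dopamine receptor that shares striatal neurons with A2a, was at 3.18, 1.86 and 1.29 against 3.43, 6.97, 5.14 and 1.52 TPM (edgeR adjusted p = 0.546). Drd1, the dopamine receptor of the other striatal projection neurons, did not overlap, at 4.70, 5.17 and 2.66 against 8.83, 13, 6.54 and 11.8 TPM (log2 fold change -1.15, edgeR adjusted p = 0.336), and DESeq2 called it (adjusted p = 0.0269). Over the 23 autosomal striatal markers tested the median was -0.01, with 0 called by edgeR and 1 called lower by DESeq2. At an unadjusted p under 0.05, 1 was higher and 4 were lower, against 4.05% and 5.17% of all genes. The summed level of the 25 striatal markers was 462 to 475 TPM in the libraries labelled knockdown and 467 to 535 TPM in the KA libraries.

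Immediate early genes, which neuronal activity induces within minutes and many of which CREB controls, leaned higher in the libraries labelled knockdown. Of 23 tested, 21 had positive fold changes and the median was 0.52. At an unadjusted p under 0.05, 11 were higher, against 4.05% of all genes, and 1 was lower. edgeR called 0 of the 23 at the adjusted threshold, and DESeq2 called 3 higher and 0 lower. Dusp6, a phosphatase that dampens ERK signalling, was at 37.8, 39.1 and 46.5 TPM against 29.7, 22.7, 21.6 and 34.1 TPM (log2 fold change 0.69 ± 0.16 SE, edgeR adjusted p = 0.252). Junb, an AP-1 transcription factor, was at 43.3, 47.0 and 62.0 against 30.6, 27.5, 31.9 and 40.0 TPM (log2 fold change 0.74 ± 0.18 SE, edgeR adjusted p = 0.286). Egr1, a zinc finger transcription factor, was at 78.3, 72.9 and 129 against 34.5, 31.2, 29.1 and 69.4 TPM (log2 fold change 1.29 ± 0.32 SE, edgeR adjusted p = 0.286). For these 3 genes, and for no other of the 23, every library labelled knockdown lay above every KA library. They were picked by smallest p, and the share of all genes without overlap is not given here. The lower one was Jun, at 52.3, 72.2 and 51.2 against 74.4, 82.7, 94.9 and 62.0 TPM.

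For Egr4, Npas4 and Fos the groups overlapped. Egr4 was at 21.3, 13.2 and 24.8 against 12.1, 10.7, 10.4 and 13.7 TPM (log2 fold change 0.85, edgeR adjusted p = 0.32). Npas4, a transcription factor induced by calcium entry, was at 8.46, 9.94 and 13.7 against 8.12, 8.73, 7.50 and 4.91 TPM (log2 fold change 0.74, edgeR adjusted p = 0.397). Fos was at 15.0, 8.01 and 25.4 against 5.97, 6.78, 8.24 and 12.9 TPM (log2 fold change 0.88, edgeR adjusted p = 0.493). Library 6 had the highest value of the libraries labelled knockdown for each, and KA library 4 the highest KA value for Egr4 and Fos but the lowest for Npas4.

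The promoters of these 3 genes are shown because they carry the binding letters of CREB, the factor that protein kinase A activates. They were chosen after the values were seen. Each run is the 250 bases before the RefSeq start of the gene, 5′ to 3′ on its own strand, in build GRCm38.p6, with TGACGT, or ACGTCA where the match is on the other strand, in capitals. Fos spans chr12:85473640-85473889 (plus strand), Egr4 chr6:85513590-85513839 (minus) and Npas4 chr19:4989972-4990221 (minus).
Fos: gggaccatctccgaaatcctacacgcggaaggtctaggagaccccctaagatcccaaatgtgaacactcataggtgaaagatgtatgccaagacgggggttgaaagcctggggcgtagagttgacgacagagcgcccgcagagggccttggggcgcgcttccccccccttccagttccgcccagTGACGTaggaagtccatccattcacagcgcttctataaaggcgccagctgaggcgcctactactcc
Egr4: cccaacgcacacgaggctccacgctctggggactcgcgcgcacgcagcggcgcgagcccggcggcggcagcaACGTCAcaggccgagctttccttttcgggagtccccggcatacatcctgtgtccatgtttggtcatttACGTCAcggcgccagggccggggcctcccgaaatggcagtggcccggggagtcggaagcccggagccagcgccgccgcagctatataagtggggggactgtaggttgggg
Npas4: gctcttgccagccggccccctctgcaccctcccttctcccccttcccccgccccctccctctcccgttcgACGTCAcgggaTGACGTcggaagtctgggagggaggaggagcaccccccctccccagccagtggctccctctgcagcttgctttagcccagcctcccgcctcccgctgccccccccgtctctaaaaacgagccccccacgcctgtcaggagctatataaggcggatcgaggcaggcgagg
Fos held 1 match, 66 bases before its start. Egr4 held 2, at 178 and 110 bases, and Npas4 held 2, at 180 and 169 bases. Of the 23 immediate early genes, 19 had a promoter in the RefSeq table and 9 of those held a match, against 7.29% of 27025 genes with a promoter of this length. Dusp6 and Junb, whose groups did not overlap, held no match, and Egr1 was not among the 19. Matching letters do not show that a factor is bound there. These shares describe the sequences of the listed genes and not the libraries. Whether CREB bears on the immediate early gene difference was not tested.

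Over the whole table, the libraries labelled knockdown were not the highest in immediate early genes. The summed level of the list was 746 to 963 TPM in the libraries labelled knockdown, 555 to 782 in the KA, 729 to 1051 in the untreated and 657 to 680.2 in the Apoe knockout libraries. Fos was at 35.6, 48.2 and 21.3 TPM in untreated libraries, and only the last of these lay below a library labelled knockdown, number 6. The count at an unadjusted p under 0.05 was 5 without knockdown library 6 and 14 without KA library 4, with medians of 0.39 and 0.73. Related neuropeptide and growth factor genes that respond to activity and seizures had a median of 0.19, with 0 called by edgeR. At an unadjusted p under 0.05, 3 of 21 were higher, against 4.05% of all genes. Cort, the neuropeptide cortistatin of interneurons, was at 18.8, 16.4 and 16.9 against 2.90, 6.48, 2.02 and 10.3 TPM without overlap (log2 fold change 1.76 ± 0.41 SE, edgeR adjusted p = 0.272). DESeq2 called Cort (adjusted p = 0.00785). Vgf, a neuropeptide precursor that growth factors induce, was at 142, 115 and 150 against 80.1, 91.8, 88.5 and 120.4 TPM (log2 fold change 0.63, edgeR adjusted p = 0.351).

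**Figure D3:**
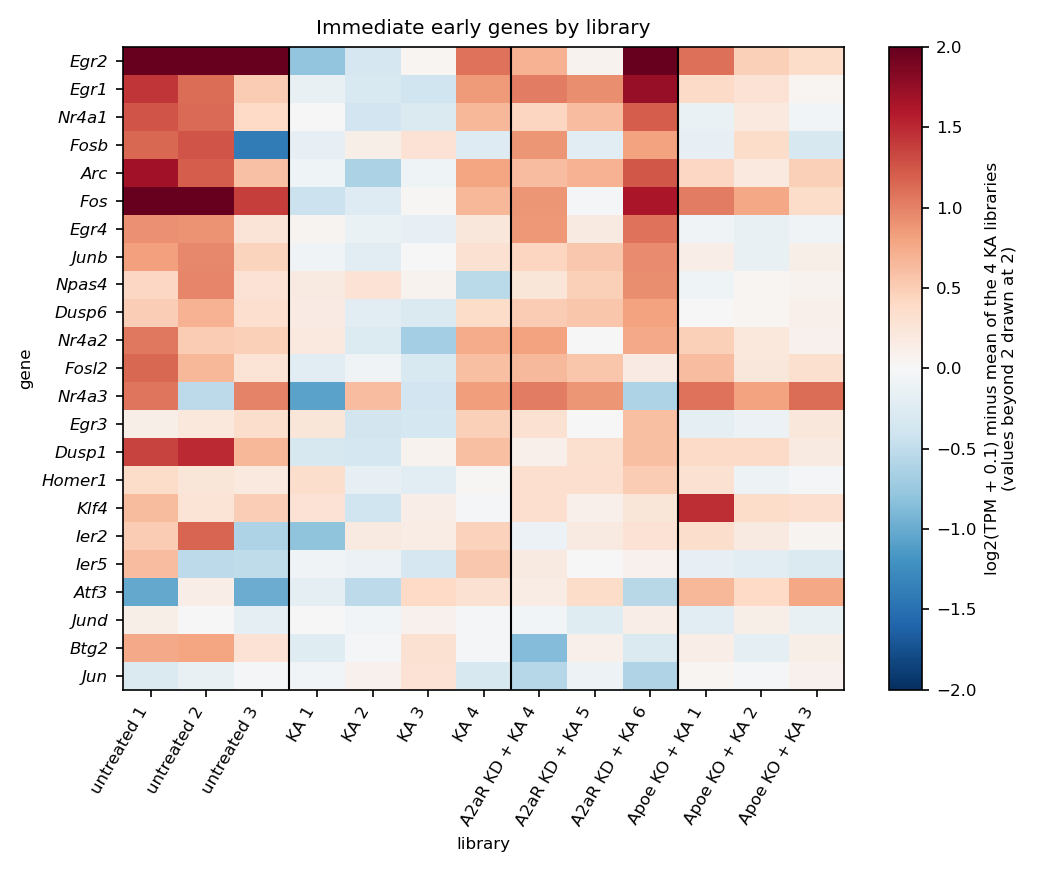
Colour shows log2(TPM + 0.1) of each immediate early gene in each library, minus the mean over the 4 KA libraries, with genes ordered by log2 fold change. Most cells of the libraries labelled A2aR knockdown (columns A2aR KD + KA) are above the KA mean, and untreated libraries 1 and 2 are higher still for Fos and Egr2.

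Markers of brain regions differed among the libraries. All 13 thalamic neuron markers had negative fold changes, with a median of -0.95. Of them, 5 were at an unadjusted p under 0.05 (5.17% of all genes were lower at that p). Among the 13, edgeR called 0 and DESeq2 called 1 lower. Prkcd, a kinase dense in thalamic relay neurons, was at 24.7, 32.1 and 20.8 against 68.7, 99.1, 187 and 32.8 TPM (log2 fold change -1.83 ± 0.65 SE, edgeR adjusted p = 0.449). Gbx2, a homeobox gene of the developing thalamus, was at 0, 0.0962 and 0 against 0.491, 2.78, 2.83 and 0 TPM (edgeR adjusted p = 0.397). Tcf7l2, a thalamic transcription factor, was at 10.8, 18.8 and 4.92 against 22.5, 41.9, 36.9 and 4.10 TPM. The summed level of the list was 239, 246 and 167 TPM in knockdown libraries 4, 5 and 6 and 372, 469.6, 611 and 196 TPM in KA libraries 1 to 4. KA library 4 lay within the range of the libraries labelled knockdown. Untreated library 1, at 269 TPM, was just above them, and the other untreated libraries were at 911 and 615 TPM. KA library 4 and untreated library 1 also had the highest summed immediate early gene level of their own groups. Whether tissue make-up bears on the immediate early gene difference was not tested.

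Among hippocampal markers, edgeR called Wfs1 alone. Besides it, the CA1 genes Fibcd1, Spink8 and Pou3f1 had higher values. Fibcd1, a chitin-binding membrane protein, was at 78.7, 73.0 and 69.1 against 47.3, 17.0, 35.8 and 60.9 TPM (log2 fold change 0.95 ± 0.32 SE, edgeR adjusted p = 0.415). Pou3f1, a POU-domain transcription factor, was at 42.3, 38.6 and 39.2 against 27.4, 15.7, 20.6 and 39.6 TPM (log2 fold change 0.72, edgeR adjusted p = 0.442). Of 14 markers of CA1 and CA3 pyramidal neurons, 6 were higher and 2 lower at an unadjusted p under 0.05, 1 was called higher (Wfs1), and the median was 0.14. Fold changes were positive for 8 of the 14 and negative for 6. Over all genes, 4.05% were higher and 5.17% lower at that p. Nectin3, an adhesion molecule dense in CA3 neurons, had lower values, at 8.36, 12 and 12.3 against 16.9, 26.7, 14.4 and 19.97 TPM (log2 fold change -0.78, edgeR adjusted p = 0.464). Dentate granule neuron markers had a median of -0.32, with 4 of 12 lower and 1 higher at an unadjusted p under 0.05 and 0 called. C1ql2, a synaptic organizer secreted by mossy fibres, was at 71.6, 111 and 69.4 against 149.7, 179, 171 and 98.4 TPM (log2 fold change -0.75, edgeR adjusted p = 0.363). The summed dentate level was 393, 567 and 346 TPM against 573, 698, 686 and 355 TPM, with KA library 4 again among the libraries labelled knockdown. In KA library 4, Pou3f1 lay within the range of the libraries labelled knockdown, and so did Spink8, a protease inhibitor gene, at 59.5 TPM against 52.3 to 66.1 TPM. Wfs1 in that library lay below them.

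Inhibitory interneuron markers leaned higher, with 15 of 16 fold changes positive, a median of 0.37, 5 higher and 1 lower at an unadjusted p under 0.05, and 0 called by edgeR or DESeq2. Over all genes, 4.05% were higher and 5.17% lower at that p. Sst, the neuropeptide somatostatin, was at 421, 425 and 617 against 315, 245, 221 and 452 TPM (log2 fold change 0.76, edgeR adjusted p = 0.438). Lhx6, a transcription factor of interneurons born in the medial ganglionic eminence, was at 12.7, 11.9 and 12.4 against 11.1, 8.42, 9.74 and 10.1 TPM without overlap (log2 fold change 0.56, edgeR adjusted p = 0.398). Gad1, which makes GABA, was at 291, 273 and 234 against 231, 264, 235 and 218 TPM. The lower marker was Calb2, which is also on the thalamic list. Neuron markers in general had a median of 0.03, those of neocortical excitatory neurons 0.09, and 0 of either list were called.

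**Figure D4:**
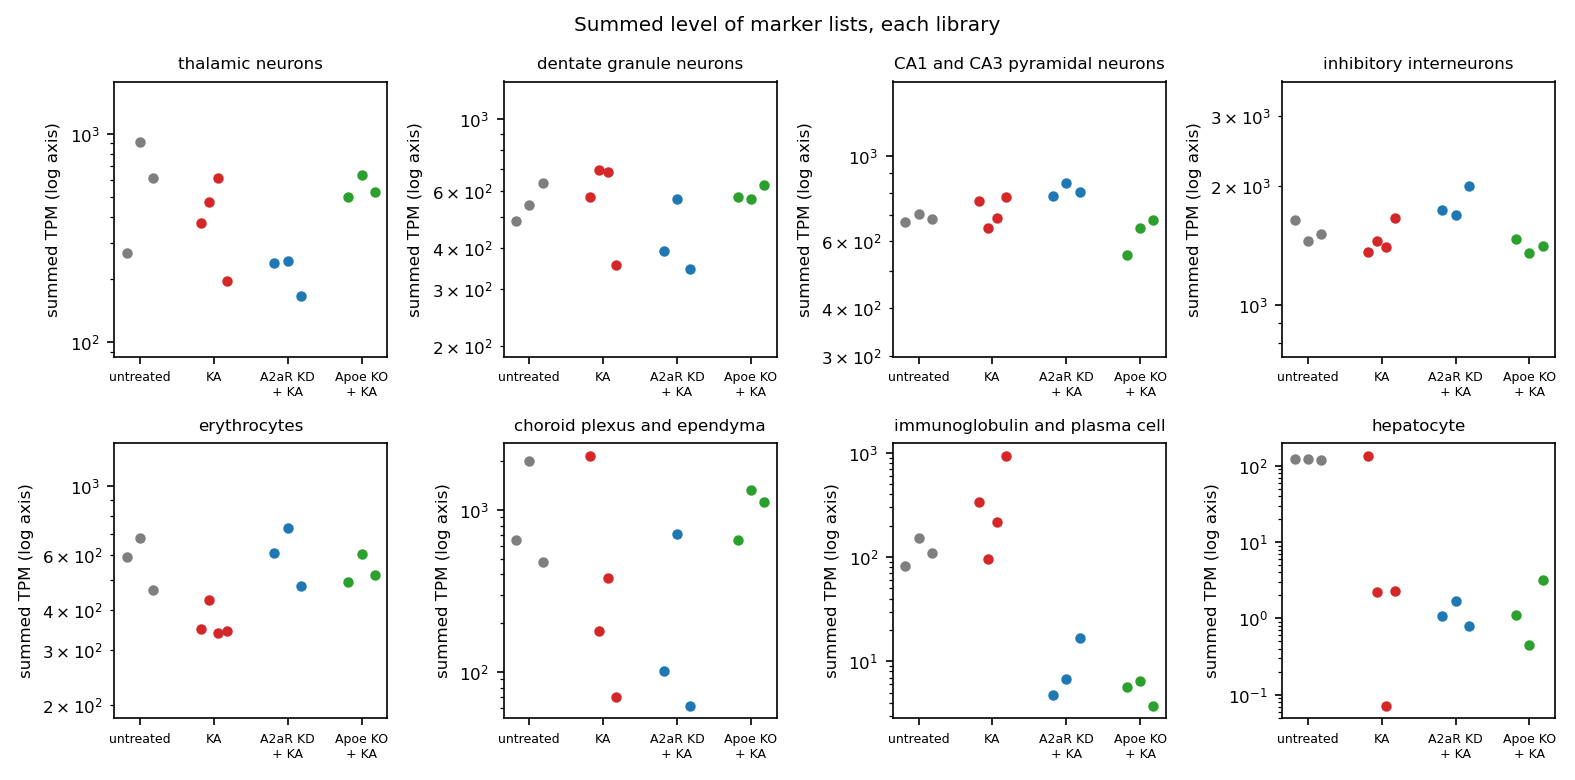
Summed TPM (log axis) of marker lists, each point a library of the group named below it. Thalamic sums are low in the 3 libraries labelled A2aR knockdown, in KA library 4 and in untreated library 1, immunoglobulin sums are low in the knockdown and Apoe knockout libraries, and hepatocyte sums are high in untreated libraries and KA library 1.

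edgeR called 0 of the glial and inflammatory genes listed here, and DESeq2 called 1 pan-reactive astrocyte gene and 1 complement gene lower. Gfap, the intermediate filament that reactive astrocytes raise, was at 454, 417 and 439 TPM in the libraries labelled knockdown and at 431, 357, 464 and 978 TPM in the KA libraries (log2 fold change -0.26 ± 0.34 SE, edgeR adjusted p = 0.876). Its fold change turned positive, 0.15, without KA library 4, which alone stood high. Pan-reactive astrocyte genes had a median of -0.40, with 10 of 12 negative and 0 called by edgeR. Of these 12, 2 were lower at an unadjusted p under 0.05, against 5.17% of all genes. Lcn2, a secreted lipocalin of reactive astrocytes and neutrophils, was at 3.30, 2.60 and 2.62 against 13.6, 43.5, 15.8 and 5.31 TPM without overlap (log2 fold change -2.69 ± 0.62 SE, edgeR adjusted p = 0.258), and DESeq2 called it (adjusted p = 0.000824). Lcn2 was lower still, at 0.0831 to 0.83 TPM, in the Apoe knockout libraries. The median of the list was -0.23 without KA library 4. Markers of astrocytes had a median of 0.04 and those of microglia -0.11, with 0 called. The 17 complement genes had a median of -0.21, with 2 lower at an unadjusted p under 0.05, against 5.17% of all genes. C3, the central complement protein, was at 1.04, 0.32 and 1.17 against 3.20, 0.984, 1.15 and 3.67 TPM (edgeR adjusted p = 0.484). Interferon response genes had a median of -0.14 and chemokines and cytokines -0.09, with 0 called in either.

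Lipid handling genes lay near the median of all genes, as adenosine genes did. Apoe, the main lipid carrier of the brain, was at 1473, 1256 and 1697 TPM against 926, 829.7, 1383 and 1467 TPM (log2 fold change 0.47 ± 0.26 SE, edgeR adjusted p = 0.61). Plin2, which coats lipid droplets, was at 6.22, 5.88 and 6.36 against 7.23, 6.67, 4.95 and 8.39 TPM (log2 fold change -0.09 ± 0.24 SE, edgeR adjusted p = 0.956). For both genes the groups overlapped. Of 24 lipid droplet genes tested, 0 were called by edgeR or DESeq2, 0 were higher and 1 was lower at an unadjusted p under 0.05, and the median was 0.03. The lower one was Dgat1, which makes triacylglycerol, at 30.8, 27.0 and 23.6 against 32.1, 36.0, 40.1 and 30.7 TPM (edgeR adjusted p = 0.512). The 20 genes of Apoe and lipoprotein handling had a median of 0.03, with 3 higher and 1 lower at an unadjusted p under 0.05 and 0 called. Of all genes tested, 4.05% were higher and 5.17% lower at that p. Scarb1, a lipoprotein receptor, was at 26.9, 30.1 and 27.1 against 24.5, 22.0, 23.8 and 29.4 TPM (edgeR adjusted p = 0.417). Fatty acid oxidation genes (0.02) and cholesterol synthesis genes (0.07) also had medians near that of all genes and 0 called.

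Among lists of neuronal function, synaptic vesicle and scaffold genes held the 1 call already given, Magi2, with a median of 0.11 over 29 tested. Of these 29, 7 were higher and 3 lower at an unadjusted p under 0.05. Heat shock genes and chaperones had a median of 0.10, with 4 of 20 higher at an unadjusted p under 0.05 and 2 called by DESeq2. Hspa8, a constitutive chaperone of clathrin coats and synaptic proteins, was at 1219.5, 1249.6 and 1272 TPM against 776, 995, 912 and 919 TPM without overlap (log2 fold change 0.52 ± 0.11 SE, edgeR adjusted p = 0.208). The medians of ionotropic glutamate receptors (0.00), GABA receptors (0.06), potassium channels (0.07) and sodium, calcium and HCN channels (-0.02) lay close to that of all genes, with 0 called by edgeR or DESeq2. At an unadjusted p under 0.05, 4 of 27 sodium, calcium and HCN channel genes were higher and 5 lower. For 18 GABA genes these counts were 3 and 2, for 29 potassium channels 2 and 2, and for 16 ionotropic glutamate receptors 1 and 1. Over all genes, 4.05% were higher and 5.17% lower at that p.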

How the data were processed

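The series' second set of KA brain libraries was used, 13 in the fit and 7 in the comparison. The authors deposited whole-number counts per gene and TPM values per gene in the same table. The submitters' processing notes name HISAT2, StringTie, RSEM and mm10, without versions or roles, and how strand was used is not stated. TPM was not recomputed from the counts.

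Counts were filtered with filterByExpr, scaled by TMM and fitted by group in edgeR 4.0.16 (quasi-likelihood test, R 4.3.3), with limma 3.58.1. P-values were adjusted by Benjamini-Hochberg over all 23318 genes tested, and autosomal genes were read from that fit. The threshold was an adjusted p of 0.05. DESeq2 1.42.0, other scalings, filters, samples in the fit and leaving out each library were tried as alternatives. The fit was tested on simulated data.

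Members and gene lists were chosen with earlier results of these data known. Named genes were Adora2a, Apoe, Gfap and Plin2. To these were added called genes (at most 12 in each direction) with a level above the median, no overlap in TPM and no predicted-gene symbol. Where fewer than 6 genes were called in a direction, the 8 genes of smallest p under the same conditions were added. Up to 5 genes of smallest p were taken from each list described. Of the genes tested, 20512 (88.1%) had the coordinates of GENCODE M21. Promoters came from RefSeq, build GRCm38.p6. Intervals are at 95%, and bounds against 0 counts use 3 counts over the group and cover counting error only.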

Additional observations from a re-analysis of the deposited data

Results flagged for a closer look

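In the 4 KA libraries, 10 of 81 gene levels, summed lists or library measures had 1 library whose gap to the nearest other passed Dixon's 95% critical value, which chance gives in about 1 in 20 groups. KA library 4 was high in 5 of them. Its Sbk1 level was 43.5 TPM, against 34.7 to 35.9 in the others. Its sum over activity and seizure-responsive neuropeptides and growth factors was 2622 TPM, against 2055 to 2064. Its ionotropic glutamate receptors summed to 1483 TPM (others 1405 to 1415), its heat shock genes and chaperones to 4749.95 TPM (others 4404 to 4439) and its leukocyte markers to 90.1 TPM (others 53.9 to 57.7).

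KA library 1 was high in hepatocyte genes, at 137 TPM against 0.0715 to 2.32, and in choroid plexus and ependymal markers, at 2165 TPM against 70.03 to 380.1. KA library 2 was high in erythrocyte markers, at 432 TPM against 338 to 349, and low in nuclear genes of the respiratory chain and ATP synthase, at 10215 TPM against 10868 to 11002. KA library 3 was high in chemokines and cytokines, at 704 TPM against 399.7 to 437. Without KA library 1, 0 of the 12 hepatocyte genes were lower at an unadjusted p under 0.05, against 10 with it, and the median log2 fold change of choroid plexus and ependymal markers went from -0.24 to 0.54.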

How the results depend on the processing

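The counts of called genes, 4 higher and 5 lower, were the same with DESeq2 size factors, without the low-count filter and with only autosomal genes in the fit, and were 3 and 5 with a 2-fold threshold added. The DESeq2 Wald test gave 76 higher and 167 lower. Fitting only the 7 libraries gave 1 higher and 0 lower, with 1663 genes at an unadjusted p under 0.05 in edgeR. A fit without the untreated group, chosen after seeing the data, gave 1 higher and 3 lower (Col6a1, Jchain, Magi2 and Ppl). Leaving out each library in turn gave 0 to 6 higher and 0 to 6 lower. The lowest counts came without knockdown library 5, where edgeR called 0 genes, with 2194 at an unadjusted p under 0.05. The causes of these changes were not tested.

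The log2 fold change of Adora2a ran from -0.00708 to 0.41 over the fits that left out a library, below 0 without KA library 3 and without KA library 4, and no fit called it (adjusted p 0.889 to 1). Gfap ran from -0.43 to 0.15 and Plin2 from -0.19 to 0.0763, each positive without KA library 4. Over the alternatives for the named genes other than Adora2a, 295 values kept their direction and side of the threshold, 45 lost a call, 22 gained one and 2 turned direction, those of Gfap and Plin2. No paired analysis was possible because the KA libraries and the libraries labelled knockdown share only the replicate number 4. With 3 and 4 libraries and 114 to 237 counts of Adora2a each, the interval of its fold change allows a fall.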
